A study of Rattus norvegicus with 16 samples.

Results

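Fatty acid oxidation and synthesis genes were described in the brains of male rats through 8 genes, found by symbol in the deposited expression table, which holds 15580 genes. They were Fabp7, Acadm, Acot2, Cpt1a, Hadha, Fasn, Acaca and Lpcat3. Each symbol matched 1 gene, and all 8 passed the filter on low counts that left 14208 genes for testing. RNA sequencing was done on 16 brain samples of male Wistar rats, called amygdala in the design text and whole tissue lysate in the sample labels. There were 4 libraries in each of 4 groups. ELS-HFD rats were taken from the dam daily for 3 h, starting on postnatal day 1 and lasting 16 days, and later ate a high fat diet. ELS rats, named for early-life stress, had the same separation and ate chow. HFD rats stayed with the dam and ate the high fat diet. Control rats stayed with the dam and ate chow. All groups were tested in a plus maze near postnatal day 57, before the diets began on postnatal day 60. No litter or dam is named, and the labels do not state that the libraries of a group came from separate animals. P-values therefore reflect how far these samples vary, and some of that variation may be technical.

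Long-chain fatty acids enter the mitochondrion as carnitine esters and are shortened there by repeated rounds of beta-oxidation, whereas synthesis in the cytosol builds palmitate from acetyl-CoA and malonyl-CoA. Malonyl-CoA also inhibits the carnitine shuttle, so that the opposing pathways are linked. In the adult brain, beta-oxidation is carried out mainly by astrocytes, and fatty acid synthesis is needed for membranes and myelin.

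The libraries held 11438086 to 23629824 counts. All 9 measured amygdala markers were detected in each library, from Isl1 at 0.135 to 7.07 CPM (counts scaled to a library total of 1000000) to Etv1 at 101 to 275 CPM. Their mean log2 level, relative to all libraries, was −0.95 to 0.15 in ELS-HFD, 0.23 to 0.42 in ELS, −0.01 to 0.34 in HFD and −0.90 to 0.57 in control libraries, so that ELS-HFD lay wholly below ELS. Levels of neighbouring tissue differed too. The mean log2 level of 8 choroid plexus genes, relative to all libraries, was −6.32 in ELS-HFD 1, −5.50 in ELS 2 and −2.33 in ELS 1, and the transcript Ttr ranged from 0.275 to 12226 CPM. The level of 13 myelin genes was highest in ELS 3 (1.02) and ELS 4 (0.85). The level of 10 striatal neuron genes ranged from −1.33 in control 4 to 1.44 in ELS 3. In tissue libraries such as these, fewer cells of a type and less RNA per cell cannot be told apart.

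The promoter windows of 3 of the genes are shown because the results below turn on them: Lpcat3 had the clearest group difference, and Fabp7 and Acadm varied together. The sequences are from RefSeq, build GRCr8, and run 5′ to 3′ on the gene's strand, from 250 bases before to 50 bases after the annotated start. Capitals mark matches on either strand to CCAAT, to the GC box GGGCGG, or to AGGTCA, the hexamer bound by nuclear receptors.
Lpcat3, chr4:159154440-159154739, plus strand: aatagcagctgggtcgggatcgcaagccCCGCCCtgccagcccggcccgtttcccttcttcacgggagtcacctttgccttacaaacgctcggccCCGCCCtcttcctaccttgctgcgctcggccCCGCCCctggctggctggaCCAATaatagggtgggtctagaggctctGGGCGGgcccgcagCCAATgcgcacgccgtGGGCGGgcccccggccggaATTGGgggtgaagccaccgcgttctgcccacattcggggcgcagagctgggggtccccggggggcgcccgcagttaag
Fabp7, chr20:37669356-37669655, plus strand: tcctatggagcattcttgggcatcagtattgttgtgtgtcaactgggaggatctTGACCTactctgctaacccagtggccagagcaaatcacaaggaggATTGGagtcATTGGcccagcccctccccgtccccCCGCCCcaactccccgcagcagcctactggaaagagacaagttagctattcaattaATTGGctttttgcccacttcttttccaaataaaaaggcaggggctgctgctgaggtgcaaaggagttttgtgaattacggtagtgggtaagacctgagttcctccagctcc
Acadm, chr2:245542815-245543114, minus strand: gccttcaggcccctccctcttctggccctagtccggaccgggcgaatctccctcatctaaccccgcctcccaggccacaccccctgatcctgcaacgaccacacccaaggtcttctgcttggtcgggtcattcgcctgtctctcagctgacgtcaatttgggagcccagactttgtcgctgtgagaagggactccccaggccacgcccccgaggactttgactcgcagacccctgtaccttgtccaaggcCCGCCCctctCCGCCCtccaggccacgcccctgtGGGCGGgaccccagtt
The Lpcat3 window held 3 CCAAT matches and 5 GC boxes. The Fabp7 window held 3 CCAAT matches, 1 GC box and 1 AGGTCA hexamer. The Acadm window held 3 GC boxes and neither of the other motifs. Among all 33469 windows of this length, 37.5% held CCAAT, 33.1% the GC box and 16.2% the AGGTCA hexamer, on either strand. Windows were available for 6 of the 8 genes, all except Fasn and Acaca. None of the 6 held CACGTG (in 6.42% of all windows), TCACCCCAC (0.484%), or the direct repeats of AGGTCA known as DR1 (0.0538%) and DR4 (0.00598%), each of which contains that hexamer. These matches describe letters in a window and say nothing of binding.

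The group means of the 8 genes lay close together. The ratio of the highest to the lowest group mean was at most 1.19, for Fabp7, and at least 1.04, for Fasn. The edgeR quasi-likelihood test with Benjamini-Hochberg adjustment over 14208 genes called 0 of the 8 genes in any of the 8 contrasts, and DESeq2 also called 0 of the 8 in each. Over all genes, the share called by edgeR was 0.00704% (1 gene, Samd4a) for ELS-HFD against ELS and for diet averaged over rearings. The share called was 0% in each of the other 6 contrasts, namely HFD, ELS and ELS-HFD against control, ELS-HFD against HFD, separation averaged over diets, and the separation-by-diet interaction. At an unadjusted p under 0.05, 1 member passed in HFD against control, where 1.84% of all genes did. The count was also 1 member in ELS-HFD against HFD (1.77% of all genes) and 1 in the interaction (2.23%). It was 2 members in diet averaged over rearings (5.54%), and 0 in ELS against control (3.32%), ELS-HFD against control (4.43%), ELS-HFD against ELS (6.21%) and separation averaged over diets (2.6%).

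**Figure D1:**
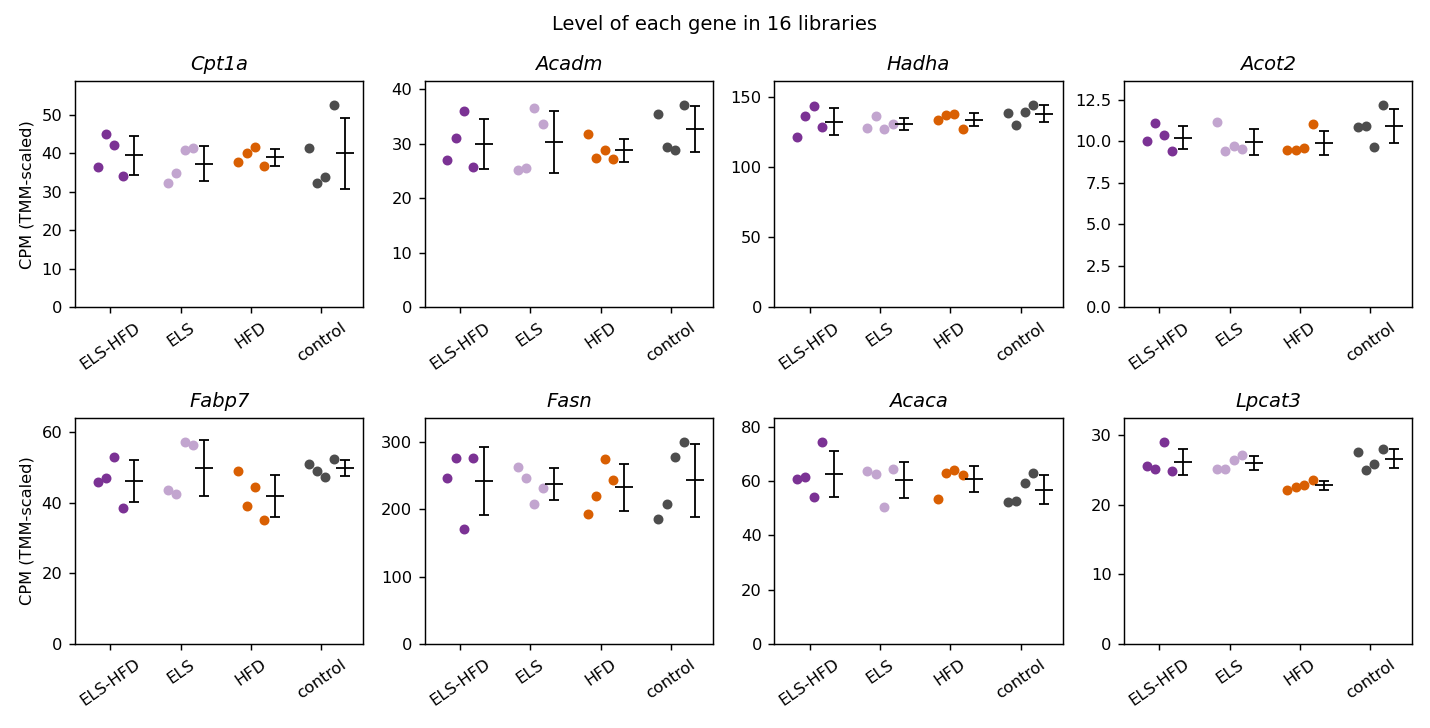
Level of each gene in CPM, with 1 panel per gene and the groups ELS-HFD, ELS, HFD and control from left to right; points are libraries and the bars show the mean and SD of 4 libraries. The 4 HFD libraries of Lpcat3 lie between 22.1 and 23.6 CPM, under all 12 other libraries, whereas the groups overlap in the other genes.

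Among the enzymes that use fatty acids to remodel membranes, Lpcat3 (ENSRNOG00000012269), a lysophospholipid acyltransferase that places polyunsaturated acyl chains into phosphatidylcholine, was the 1 gene of the 8 with groups that did not overlap. It stood at 25.48, 25.19, 28.99 and 24.85 CPM in ELS-HFD, 25.09, 25.12, 26.48 and 27.19 CPM in ELS, 22.07, 22.53, 22.82 and 23.60 CPM in HFD, and 27.52, 25.01, 25.85 and 28.03 CPM in control libraries. The 4 HFD libraries were the lowest 4 of 16, and the other 3 groups overlapped one another. Groups failed to overlap, in either direction, for 1.79% of all genes in HFD against control and 1.53% in ELS-HFD against HFD, and Lpcat3 was the 1 member of 8 in both. In ELS against control (1.61% of all genes), ELS-HFD against control (1.98%) and ELS-HFD against ELS (2.53%), 0 of the 8 members were apart. The means were 26.13 ± 1.93 CPM in ELS-HFD, 25.97 ± 1.04 CPM in ELS, 22.76 ± 0.643 CPM in HFD and 26.60 ± 1.41 CPM in control (SD, n = 4 each). In a comparison added after the values were seen, HFD libraries lay wholly apart from the other 3 groups for 0.0282% of all 14208 genes. These were B4galt4 and Lpcat3, lower in HFD (0.0141%), and AABR07027925.1 and Ammecr1, higher in HFD. Such a share was not counted for the other 3 groups, and its size without group differences was not computed. Between HFD and control alone, 1.15% of all genes had HFD libraries wholly below control. Between ELS-HFD and HFD, 0.584% had ELS-HFD libraries wholly above HFD.

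The difference in Lpcat3 did not pass the adjusted threshold. The log2 fold of HFD over control was −0.22 ± 0.06 (SE; unadjusted p = 0.00306; edgeR adjusted p = 0.9997). The log2 fold of ELS-HFD over HFD was 0.20 ± 0.06 (unadjusted p = 0.00702; edgeR adjusted p = 0.9999). The separation-by-diet interaction, which is the diet difference in separated rats minus that in unseparated rats, was 0.23 ± 0.09 on the log2 scale, with a 95% interval from 0.04 to 0.42 (unadjusted p = 0.0211; edgeR adjusted p = 0.9999). These contrasts share the HFD libraries and are not independent of one another. Averaged over rearings, the log2 diet difference was −0.11 ± 0.05, with an interval from −0.20 to −0.01 (unadjusted p = 0.0298; edgeR adjusted p = 0.851). The log2 separation difference averaged over diets was 0.08 ± 0.05. With each library left out in turn, the fold of HFD over control stayed between −0.25 and −0.19 and that of ELS-HFD over HFD between 0.15 and 0.22. In the authors' deposited table, the log2 fold of HFD over control was −0.216 with an adjusted p of 1, or 0.355 after their correction of the p-values. For ELS-HFD over HFD, the authors' deposited table gave 0.199, with an adjusted p of 1, or 0.14 after that correction.

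Raw counts of Lpcat3 ranged from 256 to 550 per library. Counting alone would give a coefficient of variation of 5.37% among the HFD libraries, and the observed value was 2.83%. In control libraries the observed value was 5.31%, against 5.11% from counting. The HFD libraries were thus closer together than counting alone would give, and so were the ELS libraries, at 4.01% against 5.36%. In ELS-HFD libraries the observed value was the larger, 7.38% against 5.14%. Whether such gaps exceed the scatter of groups of 4 libraries was not tested. The Lpcat3 groups accounted for 66.3% of the variance of its log2 CPM, the highest share of the 8 genes. The median over all genes was 14.3%, and groups that do not differ would give 20% on average. The share of all genes that reach 66.3% was not counted. The summed level of the 13 myelin genes was 5517 to 6864 CPM in HFD and 6394 to 8289 CPM in control libraries, and none of these genes was at 0. Over the 16 libraries, Lpcat3 correlated with the myelin level at r = 0.44 (0.61 within groups). With a level of 8 neuron genes, r was −0.52 (−0.63 within groups). With 5 endothelial genes it was 0.54 (0.39 within groups), and with the hepatocyte list 0.63 (0.71 within groups). The endothelial level was −0.22 to 0.08 in HFD and −0.11 to 0.42 in control libraries. Their part in the result was not tested.

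**Figure D2:**
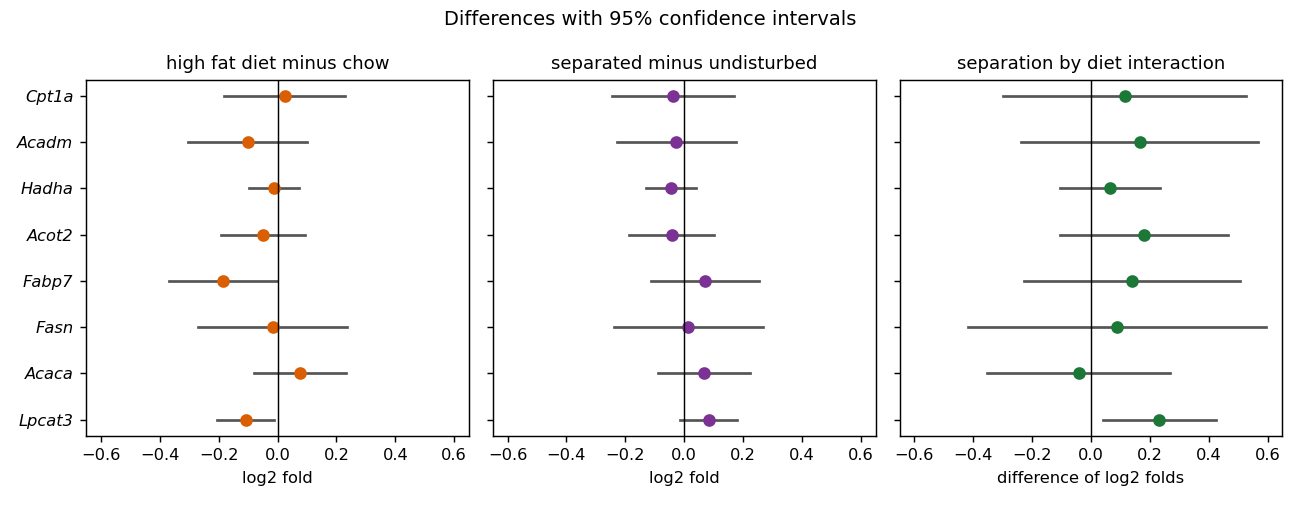
Log2 fold of each gene with its 95% interval from edgeR, for diet averaged over rearings, separation averaged over diets and the separation-by-diet interaction; the vertical line marks 0. The Lpcat3 interaction of 0.23 has an interval from 0.04 to 0.42, and the diet intervals of Lpcat3 and Fabp7 also lie below 0.

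Fatty acid binding was represented by Fabp7 (ENSRNOG00000000814), the brain-type fatty acid binding protein of astrocytes and neural progenitors. It stood at 45.87, 46.93, 52.94 and 38.48 CPM in ELS-HFD, 43.43, 42.47, 57.14 and 56.33 CPM in ELS, 48.80, 39.13, 44.39 and 35.03 CPM in HFD, and 50.93, 49.02, 47.11 and 52.36 CPM in control libraries. The lowest library was HFD 4 and the highest were ELS 3 and ELS 4, and all pairs of groups overlapped. Averaged over rearings, the log2 diet difference was −0.19 ± 0.09, with an interval from −0.37 to −0.0024 (unadjusted p = 0.0474; edgeR adjusted p = 0.895). Without ELS 3 and ELS 4, the libraries with the most myelin transcript, that difference was −0.08. Without ELS 1, ELS 2 and ELS-HFD 1, the libraries poorest in choroid plexus transcript, it was −0.28. The ELS group then held only ELS 3 and ELS 4. In HFD against control, the log2 fold was −0.25 ± 0.12, with unadjusted p = 0.0532 (edgeR adjusted p = 0.9997). The log2 fold of ELS-HFD over ELS was −0.12 ± 0.12, which had the smallest p of the 8 genes there, an unadjusted 0.355. It was −0.039 without ELS-HFD 4 and 0.091 without ELS 3 and ELS 4. The separation difference averaged over diets was 0.07 ± 0.09 and the interaction 0.14 ± 0.17, both on the log2 scale. Without ELS 1, ELS 2 and ELS-HFD 1 the interaction was −0.044, and without ELS 3 and ELS 4 the separation difference was −0.028.

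Entry into the mitochondrion was represented by Cpt1a (ENSRNOG00000014254), the carnitine palmitoyltransferase that controls the shuttle and is inhibited by malonyl-CoA. Its level was 36.60, 45.17, 42.32 and 34.20 CPM in ELS-HFD, 32.22, 35.03, 40.81 and 41.36 CPM in ELS, 37.67, 40.19, 41.57 and 36.73 CPM in HFD, and 41.32, 32.42, 33.81 and 52.53 CPM in control libraries. Control 4 was the highest and ELS 1 the lowest of the 16, and the control range spanned every other library except ELS 1. The log2 difference was 0.02 ± 0.10 for diet, with a 95% interval from −0.18 to 0.23, and −0.04 ± 0.10 for separation. Its interaction was 0.11 ± 0.19. Without control 4 the separation difference was 0.043 and the interaction −0.048, and the sign for diet turned without control 2, control 3 or ELS-HFD 2. Cpt1a varied by 23.01% among control libraries, against 4.21% from counting alone.

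Within the mitochondrion, Acadm (ENSRNOG00000009845) encodes the medium-chain acyl-CoA dehydrogenase that opens each round of beta-oxidation of chains of medium length. Its values were 27.124, 30.994, 35.996 and 25.697 CPM in ELS-HFD, 25.242, 25.614, 36.506 and 33.697 CPM in ELS, 31.726, 27.491, 28.938 and 27.138 CPM in HFD, and 35.533, 29.420, 28.890 and 37.074 CPM in control libraries. The groups overlapped throughout, with control 4 highest and ELS 1 lowest. The log2 difference was −0.10 ± 0.09 for diet and −0.03 ± 0.09 for separation, and the interaction was 0.17 ± 0.19. Without ELS 3 and ELS 4 the diet difference was 0.022, and without ELS 1, ELS 2 and ELS-HFD 1 the interaction was −0.0014. Hadha (ENSRNOG00000024629) encodes the alpha subunit of the trifunctional protein, which carries out the later steps of long-chain oxidation. It was the steadiest of the oxidation genes, at 121.48, 136.60, 143.08 and 128.35 CPM in ELS-HFD, 128.01, 136.17, 126.94 and 130.96 CPM in ELS, 133.28, 136.82, 137.39 and 126.98 CPM in HFD, and 138.79, 129.59, 139.03 and 143.94 CPM in control libraries. Its log2 diet difference was −0.01 ± 0.04, with a 95% interval from −0.10 to 0.07, which bounds any diet difference more closely than for the other 7 genes. The separation difference was −0.05 ± 0.04 and the interaction 0.06 ± 0.08 on the same scale.

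Acot2 (ENSRNOG00000010134) encodes a mitochondrial thioesterase that releases free fatty acid from acyl-CoA. It has near copies in the genome, Acot1 among them, and its counts are uncertain where reads could be shared. It had the fewest counts of the 8 genes, 110 to 240 per library. Its level was 10.03, 11.07, 10.39 and 9.41 CPM in ELS-HFD, 11.13, 9.42, 9.70 and 9.55 CPM in ELS, 9.48, 9.50, 9.60 and 11.02 CPM in HFD, and 10.87, 10.91, 9.68 and 12.17 CPM in control libraries. Control 4 was again highest, and no pair of groups separated. Counting alone gives a variation of 8.23% in ELS-HFD, 8.66% in ELS, 8.15% in HFD and 8.03% in control libraries, and the observed values were 6.81% in ELS-HFD, 8.00% in ELS, 7.54% in HFD and 9.29% in control libraries. Its libraries thus differed by about as much as counting alone gives. The log2 difference was −0.05 ± 0.07 for diet and −0.04 ± 0.07 for separation, and the interaction was 0.18 ± 0.13. In ELS against control, its log2 fold of −0.13 ± 0.10 had the smallest p of the 8 genes, an unadjusted 0.183. That fold was −0.072 without control 4 and −0.070 without ELS 3 and ELS 4.

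Synthesis was represented by Acaca and Fasn. Acaca (ENSRNOG00000034013), the acetyl-CoA carboxylase that makes malonyl-CoA, stood at 60.6, 61.5, 54.0 and 74.4 CPM in ELS-HFD, 63.8, 62.5, 50.6 and 64.4 CPM in ELS, 53.5, 62.9, 64.1 and 62.3 CPM in HFD, and 52.3, 52.6, 59.2 and 63.1 CPM in control libraries. It was the only gene of the 8 whose mean was lowest in control, at 56.8 ± 5.27 CPM, with 62.6 ± 8.52 CPM in ELS-HFD (SD, n = 4 each), and the groups overlapped. The log2 fold of ELS-HFD over control was 0.14 ± 0.10, the smallest p of the 8 genes in that contrast, an unadjusted 0.190. It was 0.049 without ELS-HFD 4 and 0.22 without ELS-HFD 3. Averaged log2 differences were 0.08 ± 0.07 for diet and 0.07 ± 0.07 for separation, and the interaction was −0.04 ± 0.15.

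Fasn (ENSRNOG00000045636), the synthase that builds palmitate, varied most within groups. It stood at 245, 275, 170 and 276 CPM in ELS-HFD, 263, 247, 208 and 231 CPM in ELS, 193, 220, 274 and 243 CPM in HFD, and 185, 208, 277 and 299 CPM in control libraries. The lowest library was ELS-HFD 3 and the highest control 4, and all pairs of groups overlapped. With counts of 2234 to 5230 per library, counting would give a variation of 1.73% among ELS-HFD libraries and 1.71% among control libraries, whereas 20.6% was observed in ELS-HFD and 22.5% in control libraries. Group membership accounted for 0.638% of its variance. The log2 diet difference was −0.02 ± 0.12, with an interval from −0.27 to 0.24, the separation difference was 0.01 ± 0.12, and the interaction was 0.09 ± 0.24. These 3 signs turned when single libraries were left out. For Fasn the spread between libraries was thus far larger than counting error.

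The folds of the 8 genes were small in the pairwise contrasts too. Beside Lpcat3, they ran from −0.25 (Fabp7) to 0.10 (Acaca) in HFD over control and from −0.01 (Hadha) to 0.14 (Fabp7) in ELS-HFD over HFD, on the log2 scale. Beside the gene of smallest p, they ran from −0.11 (Acadm) to 0.09 (Acaca) in ELS over control, from −0.13 (Acadm) to −0.0035 (Fasn) in ELS-HFD over control, and from −0.02 (Acadm) to 0.08 (Cpt1a) in ELS-HFD over ELS. In direction, 7 of the 8 log2 folds of HFD over control were below 0, with a median of −0.10, against 54.3% of all genes and a median of −0.01. That count depended on control 4, without which the fold was 0.13 for Cpt1a and 0.060 for Fasn. Of the log2 folds of ELS-HFD over HFD, 1 of 8 was below 0, against 48.7% of all genes, with a median of 0.05 for the 8 genes and 0.00 for all. The interaction was below 0 for 1 of the 8 genes, Acaca, against 49.3% of all genes, and its median was 0.13, against 0.00 for all. These 3 contrasts share the HFD libraries, and some of the 8 genes are correlated, so the counts are not independent. The interaction count was 3 of 8 without control 4, 2 of 8 without ELS 1, ELS 2 and ELS-HFD 1 or without ELS 3 and ELS 4, and 0 of 8 without ELS-HFD 3. For diet averaged over rearings 6 of 8 were below 0 (53.2% of all genes), and for separation averaged over diets 4 of 8 (49.1%). Over the alternatives run, the count ranged from 5 to 7 for diet and from 2, without control 4, to 5 for separation. In ELS-HFD against ELS the count was 2 of 8 (50.6%), in ELS-HFD against control 7 of 8 (53.1%), and in ELS against control 6 of 8 (50.9%). The counts against control also moved without control 4. Cpt1a was then at 0.15 in ELS-HFD over control, and in ELS over control Cpt1a was at 0.067 and Fasn at 0.094.

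Several of the genes varied together across libraries. Over the 16 libraries, log2 CPM of Fabp7 and Acadm correlated at r = 0.83 (Spearman's rho 0.86), and at r = 0.87 after the group means were subtracted. Acadm and Cpt1a correlated at r = 0.73 (rho 0.74, r = 0.78 within groups), and Fasn and Acaca at r = 0.75 (rho 0.61, r = 0.81 within groups). Fabp7 and Acadm had negative values with Acaca, at r = −0.59 for Fabp7 (rho −0.48) and −0.58 for Acadm (rho −0.44), whereas Cpt1a was near 0 with both synthesis genes, at 0.03 with Fasn and −0.06 with Acaca after the group means were subtracted. For each pair, the 2 libraries farthest from the median of the gene named first were then left out. Without them, r was 0.86 for Fabp7 with Acadm, 0.66 for Acadm with Cpt1a and 0.69 for Fasn with Acaca. It was −0.50 for Fabp7 with Acaca and −0.64 for Acadm with Acaca. The libraries share their tissue makeup, and these values are descriptions of 16 samples.

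**Figure D3:**
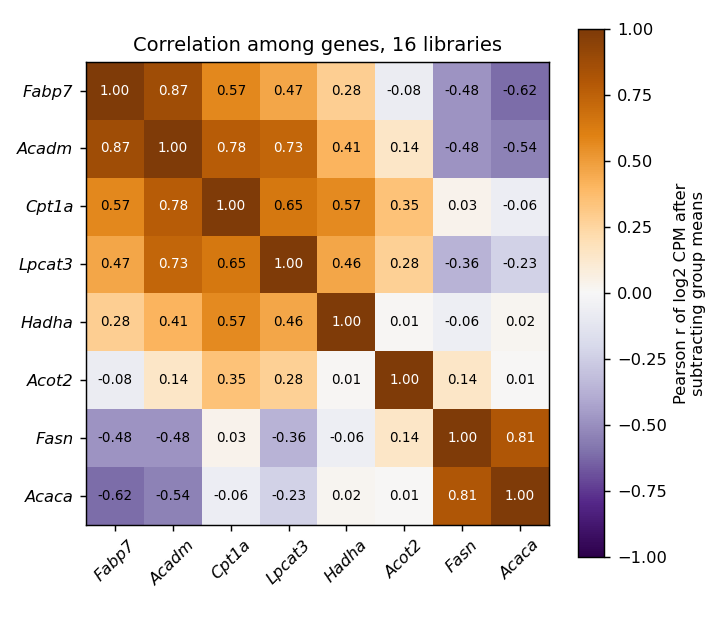
Pearson correlation of log2 CPM between the genes over 16 libraries, after the mean of each group was subtracted; brown marks positive and purple negative values. Fabp7, Acadm, Cpt1a and Lpcat3 form a positive block with values from 0.47 to 0.87, and Fasn and Acaca form another at 0.81.

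Levels of Fabp7 and Acadm moved with several of the 13 marker lists across the libraries. Acadm correlated with the level of the 8 neuron genes at r = −0.89, and at −0.93 within groups. Fabp7 did so at r = −0.79, and at −0.86 within groups. With the myelin level, r was 0.72 for Fabp7 and 0.67 for Acadm. Acadm also had r = 0.76 with ependyma (rho 0.88), 0.71 with adipocyte (2 tested genes) and 0.68 with choroid plexus genes. These lists were low in the libraries poor in choroid plexus transcript. Fabp7 had r = 0.51 with ependyma (rho 0.82), 0.44 with adipocyte and 0.39 with choroid plexus genes. With the hepatocyte level, r was 0.78 for Acadm and 0.67 for Fabp7. That level weighted its 3 tested genes, Alb, Tf and Serpina1, equally. Its summed CPM was mostly Tf, a transcript also made by oligodendrocytes. With the level of 14 astrocyte genes, r was 0.66 for Cpt1a (rho 0.39), 0.34 for Acadm (rho 0.19) and 0.29 for Fabp7 (rho 0.18). Control 4 had the highest astrocyte level, at 0.43, and the highest Cpt1a level. Without the 2 libraries of astrocyte level farthest from the median, r for Cpt1a was 0.50. Acaca correlated positively with the neuron level, at r = 0.67. The neuron level ranged from −0.22 to 0.14 on the log2 scale over all libraries, and its summed level from 6277 to 7195 CPM in ELS-HFD, 5272 to 7033 CPM in ELS, 6303 to 7345 CPM in HFD and 6316 to 6852 CPM in control libraries. The myelin sum was 3602 to 8306 CPM in ELS-HFD and 5763 to 15450 CPM in ELS libraries. The part of tissue makeup in the levels of the 8 genes was not tested.

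**Figure D4:**
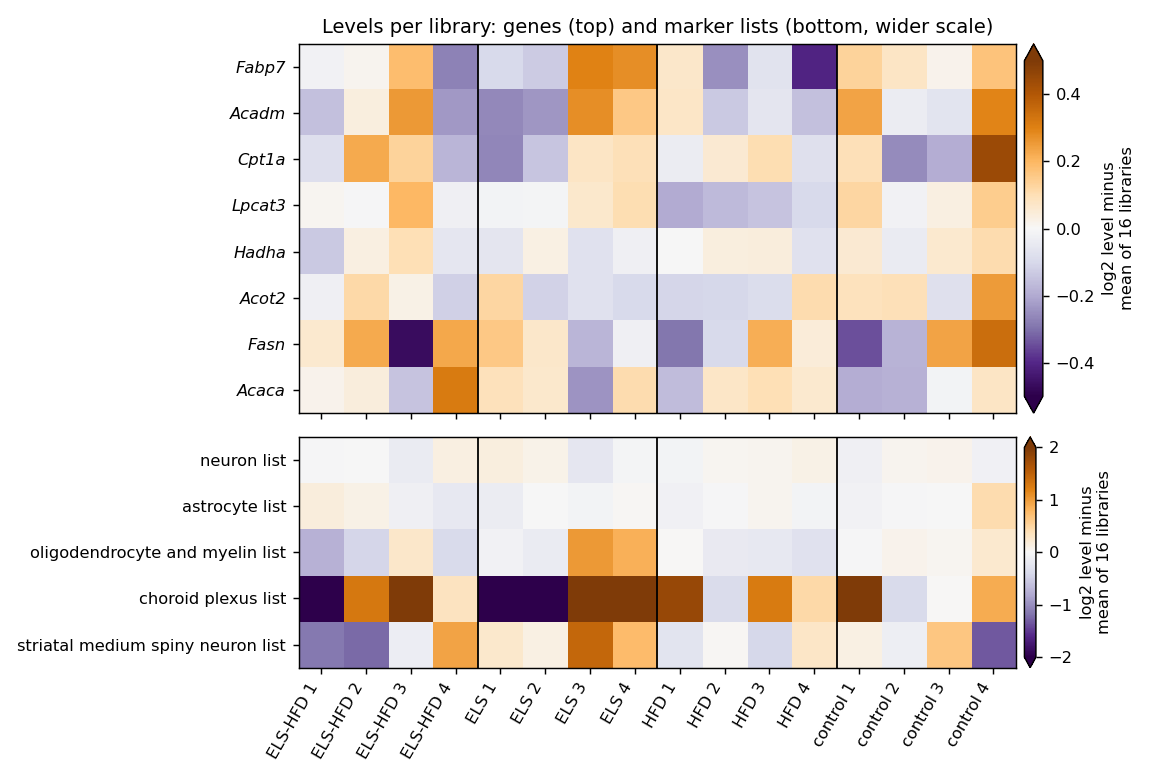
Levels in each of the 16 libraries, as log2 level minus the mean of all libraries, for the 8 genes (top) and 5 marker lists (bottom, on a wider colour scale); black lines divide ELS-HFD, ELS, HFD and control, from left to right. Brown is high and purple low, and ELS 3 is high for Fabp7, Acadm and the myelin list, which stood at 1.02 there.

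Genes with a shared symbol or a placeholder symbol, such as those that begin with LOC, were left out here. Among the other tested genes, those whose log2 CPM was most like a member's over the 16 libraries were named as a description. They were Cnn3 (r = 0.96) and Smpdl3a (0.96) for Acadm, Map1a (0.96) and Prr12 (0.96) for Fasn, Heatr5b (0.92) and Clstn1 (0.90) for Acaca, and Snx33 (0.91) and Tcf12 (0.90) for Fabp7. For Cpt1a they were Col27a1 (0.88) and Cdc42ep4 (0.88), for Lpcat3 Ifrd2 (0.84) and Kcnab3 (0.77), for Acot2 Trafd1 (0.82) and Sh3bp5 (0.79), and for Hadha Tdrd5 (0.77) and Cd164l2 (0.74).

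The other genes of the same pathways were counted in the same contrasts. Of 168 genes in 8 lists, 150 were tested, the 8 genes among them, and edgeR called 0 in each of the 8 contrasts. At an unadjusted p under 0.05, 7 of the 150 (4.67%) passed for diet averaged over rearings, against 5.54% of all genes, and 3 (2.0%) for separation averaged over diets, against 2.6%. In the mitochondrial beta-oxidation list of 22 tested genes, diet folds were above 0 for 7 and below 0 for 15, with a median of −0.04. In this list 3 of 22 interaction values were below 0, against 67 of all 150 pathway genes and 49.3% of all genes. The median interaction was 0.12 in this list, 0.02 in the 150 genes and 0.00 in all genes, and 0 of the 22 passed at an unadjusted p under 0.05. Acadm, Cpt1a and Hadha are among the 22, whose libraries share their tissue makeup, so this count is not of independent genes. It was not recounted with libraries left out. In the other 7 lists the median ran from −0.03, for synthesis, to 0.04, for acyl-CoA synthetases and thioesterases. Peroxisomal beta-oxidation had 3 diet folds above 0 and 11 below, and acyl-CoA synthetases and thioesterases 5 above and 16 below. Fatty acid synthesis, elongation and desaturation had 10 above and 17 below, and phospholipid remodelling, the list of Lpcat3, 12 above and 8 below. Fatty acid uptake and binding had 7 above and 7 below. Regulators had 7 above and 13 below, and PPAR alpha and ketone body genes 6 above and 6 below. Of all 150 pathway genes, 93 diet folds were below 0, against 53.2% of all genes.

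No list held a called gene, so the gene with the smallest p in each direction is given. For diet averaged over rearings, Elovl1, an elongase of saturated and monounsaturated very long chains, had a log2 difference of −0.46 ± 0.20, and Fads3, of the fatty acid desaturase family, 0.10 ± 0.05. Acot13, a thioesterase, stood at −0.16 ± 0.05 and Acsl4, an acyl-CoA synthetase with a preference for arachidonate, at 0.08 ± 0.06. In the mitochondrial oxidation list Cpt1c, a brain-expressed relative of Cpt1a, was at 0.12 ± 0.07 and the enoyl-CoA isomerase Eci2 at −0.11 ± 0.08. In peroxisomes the bifunctional enzyme Hsd17b4 was at −0.13 ± 0.07 and carnitine acetyltransferase, Crat, at 0.05 ± 0.05. None of these passed the adjusted threshold of edgeR. Without ELS 3 and ELS 4, the diet difference was 0.027 for Cpt1c, −0.013 for Eci2 and 0.00082 for Crat. In the remaining lists Lclat1, an acyltransferase of cardiolipin remodelling, was at 0.14 ± 0.05, Fabp5 at 0.10 ± 0.07, Insig1, which retains Scap in the endoplasmic reticulum, at 0.17 ± 0.10, Mid1ip1, which promotes polymerisation of acetyl-CoA carboxylase, at −0.14 ± 0.06, the lipid droplet protein Plin4 at 0.37 ± 0.25 and the arrestin-fold protein Txnip at −0.39 ± 0.20.

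For separation averaged over diets, Etfb, a subunit of the flavoprotein that takes electrons from acyl-CoA dehydrogenases, had a log2 difference of −0.19 ± 0.06 and Decr1, which handles unsaturated chains, 0.19 ± 0.10. The stearoyl-CoA desaturase Scd was at −0.21 ± 0.08 and malonyl-CoA decarboxylase, Mlycd, at 0.10 ± 0.06. The peroxisomal enzymes Ehhadh and Crot were at 0.33 ± 0.17 and −0.22 ± 0.12. The thioesterase Acot11 was at 0.33 ± 0.14 and the synthetase Acsf2 at −0.09 ± 0.07. Among the others, Mboat1 was at −0.38 ± 0.24, Acbd5 at 0.05 ± 0.06, Fabp5 at −0.13 ± 0.07, Scap, the escort of sterol response factors, at 0.10 ± 0.05, Mlx at −0.07 ± 0.04 and Plin4 at 0.38 ± 0.25. Without ELS 1, ELS 2 and ELS-HFD 1, Scap was at 0.020, and without ELS 3 and ELS 4, Acsf2 was at −0.015. No sign turned under these alternatives among the genes named from the lists, but without ELS 3 and ELS 4 the size moved by over 1.5 times for 9 of 14 in the diet contrast, 8 of them smaller, and 6 of 15 in the separation contrast. It did so for 6 of 14 and 5 of 15 without ELS 1, ELS 2 and ELS-HFD 1. All edgeR adjusted p-values for separation in these lists were 0.9999 or higher.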

How the data were processed

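Per the labels' protocols, 15 ng of RNA per sample was reverse-transcribed from barcoded oligo-dT primers, and the pool was amplified linearly. Rnor_6.0, STAR, HTSeq, cutadapt, Picard and DESeq2 are listed in the submitters' processing notes, with no version or role. Neither strand use nor molecular identifiers are stated by these sources, so a gene and an antisense partner cannot be told apart. Raw counts per Ensembl gene were deposited by the authors, per the file headers. A normalized signal, deposited by the authors beside the counts, was checked to be the count over a constant for each library, and had no other use. The authors' deposited table also holds log2 fold changes, p-values and adjusted p-values, printed only where that table is named. A list of other values, the authors' thresholds, was deposited and not used in any test.

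Counts were tested with the quasi-likelihood test of edgeR 4.0.16 in R 4.3.3, with TMM factors of 0.952 to 1.029 and filterByExpr minima of 10 counts and 15 in total. A single model with group means was fitted to the 16 libraries, and 8 contrasts were adjusted by Benjamini-Hochberg over 14208 genes at a threshold of 0.05. Each SE is the size of the log2 fold over the root of its F. Levels are TMM-scaled CPM, and for correlations 2 was the prior count on the log2 scale. The fits were tested on simulated data. Alternatives were DESeq2 1.42.0, its size factors in edgeR, no low-count filter, a replicate block, the compared groups alone, and leaving out single libraries, the 3 libraries poor in choroid plexus transcript, or the 2 rich in myelin transcript.

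The genes, the pathway and marker lists and the alternatives were chosen with earlier results of these data known. All 8 genes were named in every averaged contrast and the interaction. In pairwise contrasts, those with an unadjusted p under 0.05 or the smallest p were named. From each pathway list, with no gene called, the gene with the smallest p in each direction was named for both averaged contrasts. For likeness, the 2 genes of highest Pearson correlation were named, among tested genes with a symbol of their own. Where such a gene was itself one of the 8, its values stand with that gene. The value of 1 gene that this rule names is not reported here. Promoter sequences came from RefSeq on GRCr8 and no other coordinates were used, since the builds differ.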

Additional observations from a re-analysis of the deposited data

Results flagged for a closer look

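Single libraries stood apart from the other 3 of their group in 5 of the 32 combinations of gene and group, by Dixon's 95% criterion for 4 samples (a gap above 0.829 of the range). Chance flags about 1 in 20. Acot2 was highest in ELS 1, at 11.1 CPM, and in HFD 4, at 11.0 CPM. Acaca was lowest in ELS 3, at 50.6 CPM, and in HFD 1, at 53.5 CPM. Lpcat3 was highest in ELS-HFD 3, at 28.99 CPM. Without that library, the log2 fold of Lpcat3 in ELS-HFD over HFD was 0.15, against 0.20 with it. The same library held the lowest Fasn level of all 16, at 170 CPM.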

How the results depend on the processing

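None of the 8 genes was called by edgeR or DESeq2 under any alternative run. The replicate numbers did not pair the libraries. After group means were subtracted, same-numbered libraries of different groups correlated at −0.48 to 0.65 (median −0.10). Other pairs from different groups correlated at −0.65 to 0.67 (median −0.0051), and 5 of 16 libraries correlated best with their own number. With the number as a block, the Lpcat3 log2 fold of HFD over control was −0.22 and no call changed. Among all genes, DESeq2 called 1 in HFD against control, 1 in ELS-HFD against control, 5 in ELS-HFD against ELS and 2 for diet. Leaving out 1 library gave 0 to 1 genes in both ELS-HFD against control and ELS-HFD against ELS. Without ELS 1, ELS 2 and ELS-HFD 1, the calls were 23 in ELS against control, 116 in ELS-HFD against ELS and 102 for diet. That setting left ELS 3 and ELS 4, the libraries rich in myelin transcript, as the only ELS libraries. Without ELS 3 and ELS 4, or with the compared groups alone, ELS-HFD against ELS gave 0. The cause was not tested.

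Some log2 folds of the 8 genes changed sign. Leaving out 1 library, diet differences ranged from −0.032 to 0.0077 for Hadha, −0.026 to 0.10 for Cpt1a and −0.061 to 0.063 for Fasn. Separation differences ranged from −0.040 to 0.082 for Fasn, −0.078 to 0.013 for Acadm and −0.076 to 0.043 for Cpt1a, and interactions from −0.048 to 0.20 for Cpt1a, −0.037 to 0.23 for Fasn and −0.14 to 0.024 for Acaca. Without ELS 1, ELS 2 and ELS-HFD 1, diet gave −0.024 for Cpt1a, 0.017 for Hadha and 0.036 for Fasn. Separation then gave 0.10 for Acadm, 0.047 for Cpt1a and −0.047 for Fasn, and the interaction −0.044 for Fabp7, −0.0014 for Acadm and 0.043 for Acaca. Without ELS 3 and ELS 4, Fabp7 was at 0.091 in ELS-HFD over ELS and −0.028 for separation, Acadm at 0.022 for diet and Fasn at −0.026 for the interaction. Acot2, with at most 240 counts per library, was limited by depth.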

Other observations

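Elovl1, which extends saturated and monounsaturated acyl-CoA to very long chains and is named above for its diet difference, stood at 18.1, 21.9, 35.9 and 23.2 CPM in ELS-HFD, 26.2, 20.5, 61.3 and 46.6 CPM in ELS, 30.1, 23.5, 23.7 and 24.1 CPM in HFD, and 27.9, 26.6, 30.9 and 36.5 CPM in control libraries. ELS 3 and ELS 4 were the highest 2 of 16, and these held the highest myelin levels, at 1.02 and 0.85. Averaged over rearings, the log2 diet difference was −0.46 ± 0.20, with an edgeR adjusted p of 0.851. Without ELS 1, ELS 2 and ELS-HFD 1 it was −0.63, with an edgeR adjusted p of 0.0461. That setting left ELS 3 and ELS 4, the highest libraries, as the only ELS libraries. Without ELS 3 and ELS 4 the diet difference was −0.09, with an edgeR adjusted p of 0.998. Over all alternatives run, its adjusted p ranged from 0.0461 to 0.9999. The part of the myelin transcripts in this difference was not tested.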
